A study of Mus musculus with 5 samples.

Results

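The genes described here are 52 genes of the mitotic spindle, the kinetochore, mitotic entry and cytokinesis, chosen by symbol from a fixed list among the 24527 genes of the deposited count table. The list was chosen with earlier results of these data known, so the shares of all genes given beside it are description only. All 52 were found, and all 52 passed the filter on low counts (above 1 CPM, counts scaled to a common library size, in at least 2 samples), as did 14612 genes in all. RNA was sequenced from prostate cancer tissue, checked under the microscope by the study, of TripleTg mice, which carry a ubiquitously expressed human HGF transgene (hHGFtg) together with a human MET transgene (H11 hMET/+) and 1 stabilised β-catenin allele (Ctnnb1 L(Ex3)/+). The last 2 are switched on by PB-Cre4, a Cre recombinase under the probasin promoter, which is active in prostate epithelium and is itself androgen-responsive. The 3 castrated and the 2 intact samples share all of these alleles on a mixed C57BL/6 and C3H SCID background, and the comparison asks what androgen withdrawal does to tumours driven by HGF/MET and Wnt/β-catenin signalling. Per the study, mice were castrated at 4 months and analysed at 8 months. The intact mice of that experiment are described as matched to them in age and genotype, and the sources used here do not say whether each library came from 1 animal. P-values therefore measure only the spread between these samples. Library totals ran from 18951782 counts in Castrated 2 to 28015507 in Castrated 1, with 20492061 in Castrated 3, 21560355 in Intact 1 and 22853501 in Intact 2.

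Mitosis is run by a small set of proteins that dividing cells make late in the cycle. Cyclin B and CDK1 trigger entry, condensins compact the chromosomes, kinetochores built on CENP-A chromatin bind spindle microtubules, and the checkpoint proteins hold the anaphase-promoting complex back until every kinetochore is attached. In resting cells the DREAM complex, which contains MuvB, represses many of these genes through a cell cycle homology region (CHR) in their promoters. In G2 MuvB acts with B-MYB and FOXM1 to switch them on, and NF-Y boxes nearby add to their activity. Their mRNAs are therefore scarce in resting tissue and are widely used as a measure of how many cells are dividing.

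The label fitted the tissue: epithelial keratin genes were abundant in every library, with Krt18 ranging from 629 CPM in Castrated 2 to 1109.6 CPM in Intact 1. But 2 of the 5 libraries stood apart. Intact 2 alone held the prostate secretory gene Tgm4 at a high level, with 1347 CPM against at most 0.419 CPM in the other 4 samples. Pbsn, the probasin gene, was at 5.21 CPM in Intact 2 and at most 0.454 CPM in the others, and Msmb was at 0 counts in all 5 samples. Castrated 1 was most like Intact 1 (r = 0.922 over log2 CPM), while the castrated samples correlated with each other at 0.885 to 0.937 and the intact pair at 0.848. It also lacked the adipocyte genes of the other castrated samples, with 0.523 CPM of Adipoq against 68.8 in Castrated 2 and 68.3 in Castrated 3. Values without Castrated 1 and without Intact 2 are therefore given below.

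All 52 genes had a negative log2 fold change, and their summed level was 396.0 CPM in Castrated 1, 522.4 in Castrated 2 and 606.3 in Castrated 3 against 1011 in Intact 1 and 1418 in Intact 2. The sums of the groups did not overlap. For 46 of the 52 genes every castrated sample lay below both intact samples, against 16.1% of all genes tested. The median log2 fold change of the list was -1.59, a level 3.01-fold lower in castrated tissue, with quartiles of -1.87 and -1.28, while the median of all genes tested was -0.03. The log2 fold change was below -1 for 46 genes and below -2 for 5: Cenpf, Cdc25c, Bub1, Aspm and Knl1. Each of these 5 came above -2 in at least 1 fit with 1 sample left out. Of the 46, Ncaph, Espl1, Pttg1, Cenpa, Spc24, Bub1b, Cdc20, Kif2c and Nusap1 came above -1 in such a fit, with Spc24 reaching -0.77. In bulk tissue, fewer dividing cells and less of these mRNAs per cell cannot be told apart.

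The quasi-likelihood test of edgeR, adjusted over all genes after Benjamini and Hochberg, called none of the 52 genes and 0 genes in all (0%). A call needed an adjusted p under 0.05 and a log2 fold change beyond 1 in either direction. The smallest adjusted p of this edgeR test was 0.289, a value that 20 of the 52 genes shared, and the largest among the list was 0.989. At an unadjusted p under 0.05 the same test had 44 of the 52 genes lower and none higher, against 918 genes lower (6.28%) and 1277 higher among all tested. That count was 26 of 52 without Intact 2 (6.62% of all genes then tested), 29 without Castrated 2 (2.67%) and 34 without Castrated 1 (5.78%). DESeq2, with the same thresholds, called 33 of the 52 lower against 1.96% of all genes, and edgeR's likelihood ratio test called 14 against 0.636%. All 14 were among the 33. With 3 samples against 2, an exact one-sided permutation test of a single gene cannot go below 0.1. Since no gene passed the main test, the values below are given as levels and differences.

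**Figure D1:**
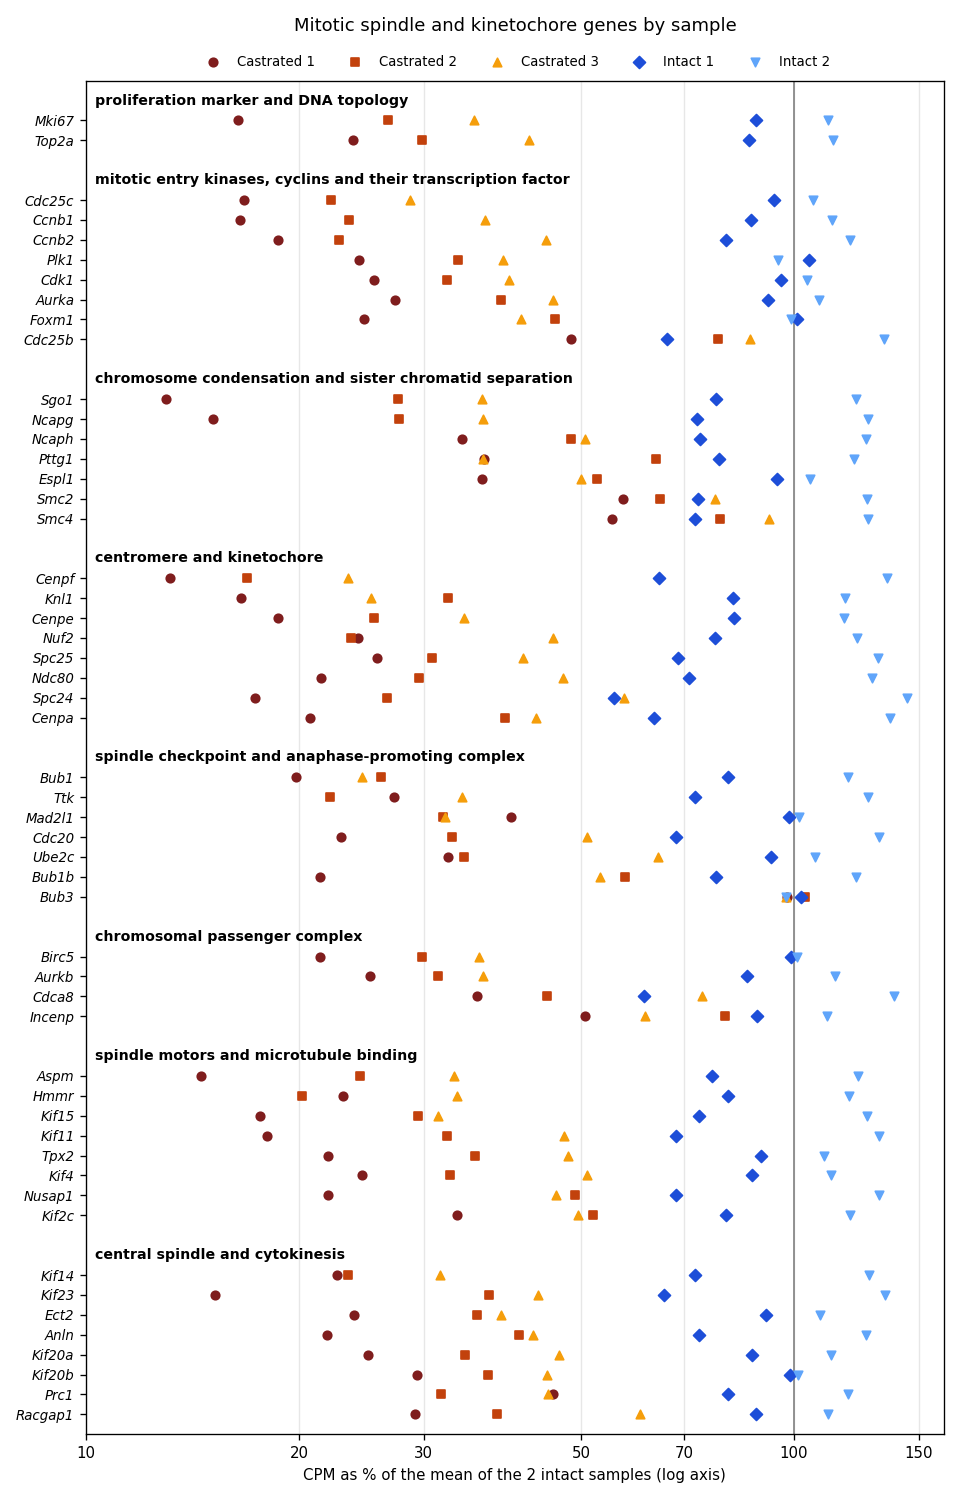
Level of each of the 52 genes in each sample as a percent of the mean CPM of the 2 intact samples (log axis), by role; each point is 1 sample. The median gene stood at 23.9% in Castrated 1, 32.5% in Castrated 2 and 43.3% in Castrated 3, and at 80.4% in Intact 1 and 120% in Intact 2; Bub3 lies at the intact mean in all 5.

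Ki-67 (Mki67), the protein that coats mitotic chromosomes and the standard marker of dividing cells, was at 18.7 CPM in Castrated 1, 30.5 in Castrated 2 and 40.3 in Castrated 3. The intact samples held 101 and 128 CPM. Each castrated sample was thus below the lower intact one by more than the castrated samples differed among themselves, and the means were 29.8 ± 10.8 (SD, n = 3) and 114 ± 19.0 CPM (SD, n = 2). The log2 fold change of Mki67 was -1.94 with a standard error (SE) of 0.35. Top2a, the topoisomerase that untangles sister chromatids, was at 19.0, 23.8 and 33.6 CPM in the castrated samples and at 68.8 and 90.5 CPM in the intact ones, a log2 fold change of -1.65 (SE 0.30).

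Among the 8 genes of mitotic entry, 7 lay below both intact samples in every castrated sample (16.1% of all genes). The median log2 fold change of the 8 was -1.63. Cdc25c, the phosphatase that activates CDK1, had the lowest counts of the list (down to 19 reads) and the clearest gap between groups. It was at 0.768, 1.02 and 1.32 CPM in the castrated samples and at 4.30 and 4.88 CPM in the intact samples, so that the lower intact sample was 3.27 times the highest castrated one, the widest such ratio among the 52 genes. Its log2 fold change was -2.15 (SE 0.45). Ccnb2, a B-type cyclin and the gene of this role with the highest level per length, was at 2.55, 3.11 and 6.09 CPM against 10.9 and 16.4 CPM, a log2 fold change of -1.80 (SE 0.49). The kinases Cdk1, Plk1 and Aurka and the transcription factor Foxm1 lay between -1.64 and -1.43, and Ccnb1 at -1.97. Cdc25b, the phosphatase that starts CDK1 activation at the centrosome, was the exception. Its castrated levels of 8.51, 13.7 and 15.2 CPM straddled the 11.7 CPM of Intact 1 and stayed below the 23.6 CPM of Intact 2, and its log2 fold change was -0.50 (SE 0.44).

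Chromosome condensation and separation had the smallest median difference of the 8 roles, -1.13 over 7 genes, and a wide range. Sgo1, the shugoshin that protects centromeric cohesion, was at 1.01, 2.15 and 2.83 CPM in the castrated samples against 6.05 and 9.53 CPM, a log2 fold change of -1.97 (SE 0.55). The condensin I subunits Ncapg and Ncaph had log2 fold changes of -1.92 and -1.17 with no overlap between groups. The SMC core subunits, which both condensin complexes use, overlapped. Smc4 was at 49.7, 70.5 and 82.7 CPM in the castrated samples and at 65.1 and 114 CPM in the intact ones (log2 fold change -0.41, SE 0.34). Smc2 was at 19.2, 21.7 and 25.9 CPM against 24.5 and 42.5 CPM (-0.59, SE 0.32, and -0.18 without Intact 2). The anaphase genes Espl1 (separase) and Pttg1 (securin) stood at -1.11 and -1.13.

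The 8 centromere and kinetochore genes had a median of -1.65, and none was above -1.54. Cenpf, a large protein of the outer kinetochore whose gene lies at chr1:189640614-189688086 (mm10, minus strand), had the lowest log2 fold change of the 52. It was at 4.68, 6.01 and 8.33 CPM in the castrated samples and at 22.9 and 48.2 CPM in the intact ones. The groups were far apart, but the intact samples also differed from each other by more than the castrated ones did. Its log2 fold change was -2.49 (SE 0.44), a 5.61-fold lower level. Both its size and its rank rested on Intact 2: without that sample it was -1.90, and Cdc25c at -2.10 was then the lowest. With TPM as input Mki67 was the lowest. Knl1, the scaffold that recruits the checkpoint kinases to the kinetochore, was at 2.30, 4.50 and 3.51 CPM against 11.4 and 16.4 CPM (-2.02, SE 0.42). Cenpa, the histone variant that marks the centromere and the gene of this role with the highest level per length, was at 4.43, 8.37 and 9.26 CPM against 13.6 and 29.2 CPM (-1.54, SE 0.49). The 4 subunits of the NDC80 complex, which holds the microtubule end, had log2 fold changes of -1.68 for Nuf2, -1.61 for both Ndc80 and Spc25, and -1.57 for Spc24. Without Intact 2 these were -1.35, -1.16, -1.11 and -0.77, and that of Cenpa was -0.93. The groups overlapped only for Spc24, where Castrated 3 at 2.78 CPM was just above Intact 1 at 2.69 CPM.

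The checkpoint and anaphase-promoting complex genes held both the difference with the smallest p and the smallest difference of the list. Bub1, the kinase that loads the checkpoint, was at 2.20, 2.90 and 2.73 CPM in the castrated samples and at 8.96 and 13.2 CPM in the intact ones (log2 fold change -2.09, SE 0.37). Mad2l1, the inhibitor of CDC20, was at 28.4, 22.7 and 22.8 CPM against 70.1 and 72.3 CPM (-1.53, SE 0.20). The 2 intact samples were close to each other, as were the 3 castrated ones, and the groups were far apart. Bub3, the platform that brings BUB1 and BUBR1 to the kinetochore and which lies at chr7:131560370-131571892 (plus strand), was at 69.1, 73.3 and 68.9 CPM in the castrated samples and at 72.5 and 69.0 CPM in the intact ones. These 5 values overlapped throughout, and the log2 fold change was -0.01 (SE 0.17). Bub3 was also the most abundant member per length, with a mean of 76.3 TPM, a level scaled by gene length, over the 5 samples, ahead of Mad2l1 at 46.1 and Smc4 at 39.4 TPM. Ttk, Cdc20, Ube2c and Bub1b lay between -1.85 and -1.18.

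In the chromosomal passenger complex, which corrects faulty attachments, 2 of the 4 subunits were much lower and 2 less so. Birc5 (survivin) was at 3.42, 4.77 and 5.75 CPM in the castrated samples and at 15.8 and 16.2 CPM in the intact ones (-1.78, SE 0.35). The kinase Aurkb stood at -1.69. Incenp, the scaffold, was at 15.4, 24.2 and 18.7 CPM against 26.9 and 33.7 CPM. The groups did not overlap, but the gap was small (-0.64, SE 0.29). Cdca8 (borealin) stood at -0.96 with overlapping groups, and at -0.30 without Intact 2.

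All 8 spindle motors and microtubule-binding genes and all 8 genes of the central spindle and cytokinesis were below both intact samples in every castrated sample. That held for 16.1% of all genes tested. The medians of these roles were -1.56 and -1.51. Aspm, which focuses the spindle poles, was at 2.27, 3.81 and 5.16 CPM in the castrated samples and at 12.0 and 19.2 CPM in the intact ones (-2.06, SE 0.47). Tpx2, the activator of Aurora A, was at 5.83, 9.39 and 12.7 CPM against 23.8 and 29.2 CPM (-1.51, SE 0.39). Both were ordered alike, with Castrated 1 lowest and Intact 2 highest. In cytokinesis, the kinesin Kif14 was at 1.50, 1.56 and 2.09 CPM against 4.79 and 8.46 CPM (-1.95, SE 0.45). Prc1, which bundles the central spindle and had the highest level per length of this role, was at 14.2, 9.87 and 14.0 CPM against 25.1 and 37.1 CPM (-1.29, SE 0.31). The smallest differences in these roles were Kif2c at -1.15 and Racgap1 at -1.23.

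**Figure D2:**
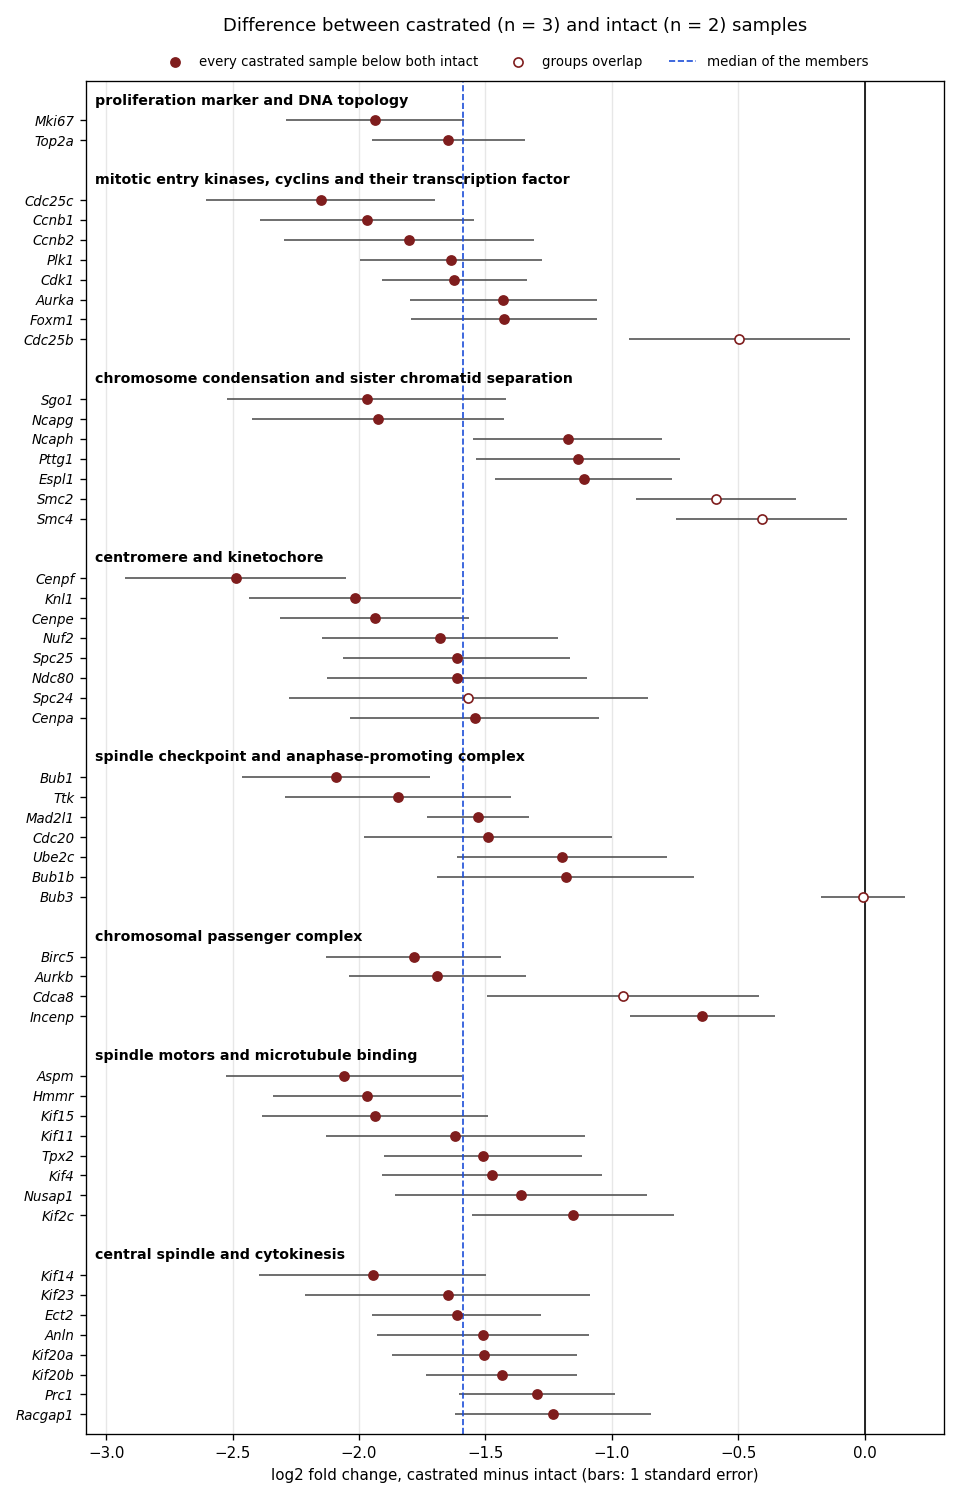
Log2 fold change (castrated minus intact) of each of the 52 genes with 1 SE on either side, by role; filled points are genes whose castrated samples all lie below both intact samples, and the dashed line is the median of the list, -1.59. The points of 46 genes lie left of -1, and Bub3 at -0.01 stands alone at 0.

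The direction of the difference was shared by most of the list, but the size of the difference varied. The log2 fold changes had an SD of 0.48 among the 52 genes, close to the median SE of a single gene, 0.41, and 36 genes lay within 1 SE and 46 within 2 SE of the list's median. The 6 genes above -1 were Cdca8, Incenp, Smc2, Cdc25b, Smc4 and Bub3. The other 46 ran from -2.49 to -1.11. The genes share libraries, so part of each SE is variation common to the list, and these counts are not independent of each other. An SD close to the median SE therefore does not show that the difference was even. Differences between members were not tested.

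The order of the samples was also shared. Castrated 1 was the lowest castrated sample for 45 of the 52 genes, against 38.3% of all genes tested, and Castrated 3 the highest for 40, against 31.5%. Intact 2 was above Intact 1 for 49, against 54% of all genes, with a median ratio of 1.49 between the intact samples and a range of 0.905 to 2.59. The lower intact sample was 1.83 times the highest castrated sample at the median. Leaving out Castrated 1 gave a median log2 fold change of -1.35, and leaving out Intact 2 gave -1.35 as well, with 46 and 47 of the 52 genes in which the remaining castrated samples were all below the remaining intact ones. With fewer samples this held for more of all genes too, 24.7% without Castrated 1 and 34.4% without Intact 2. Leaving out each of the other 3 samples gave -1.57 without Castrated 2 and -1.80 both without Castrated 3 and without Intact 1.

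Stretches of promoter are shown for the 5 genes with the lowest log2 fold changes that had an entry and for Bub3 and Cdc25b, from the other end of the list. Each runs from 150 bases before to 30 after the gene's start, 5′ to 3′ on the gene's strand (RefSeq, GRCm38.p6). Capitals mark the core of a CHR and the NF-Y box. The CHR core was taken as TTTGAA, which reads TTCAAA on the other strand, or as the palindrome TTCGAA. The NF-Y box was taken as CCAAT, which reads ATTGG on the other strand. Matches on both strands were counted, and none of the motifs contains another.
Cenpf, chr1:189688057-189688236, minus strand: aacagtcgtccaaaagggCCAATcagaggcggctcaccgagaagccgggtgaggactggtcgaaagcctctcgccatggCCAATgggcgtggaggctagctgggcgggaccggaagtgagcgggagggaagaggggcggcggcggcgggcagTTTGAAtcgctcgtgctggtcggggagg
Bub1, chr2:127831830-127832009, minus strand: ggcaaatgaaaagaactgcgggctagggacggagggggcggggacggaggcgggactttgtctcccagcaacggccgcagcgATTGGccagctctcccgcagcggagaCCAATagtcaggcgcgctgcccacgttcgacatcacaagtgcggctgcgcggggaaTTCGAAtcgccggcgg
Aspm, chr1:139454623-139454802, plus strand: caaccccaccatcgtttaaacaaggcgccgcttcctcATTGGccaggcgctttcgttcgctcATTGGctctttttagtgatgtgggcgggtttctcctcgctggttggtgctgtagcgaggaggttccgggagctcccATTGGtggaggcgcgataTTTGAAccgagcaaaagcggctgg
Knl1, chr2:119046969-119047148, plus strand: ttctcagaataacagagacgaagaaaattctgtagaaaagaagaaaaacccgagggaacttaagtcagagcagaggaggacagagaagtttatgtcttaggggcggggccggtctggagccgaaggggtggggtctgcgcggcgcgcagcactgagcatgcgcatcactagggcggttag
Sgo1, chr17:53689286-53689465, minus strand: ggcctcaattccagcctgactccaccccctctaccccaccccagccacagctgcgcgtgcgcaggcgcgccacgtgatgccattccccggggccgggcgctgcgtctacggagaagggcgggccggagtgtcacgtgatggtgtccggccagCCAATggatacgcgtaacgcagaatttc
Bub3, chr7:131560220-131560399, plus strand: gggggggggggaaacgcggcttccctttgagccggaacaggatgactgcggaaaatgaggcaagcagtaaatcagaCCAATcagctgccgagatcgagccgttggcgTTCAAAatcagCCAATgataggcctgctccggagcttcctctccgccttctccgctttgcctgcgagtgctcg
Cdc25b, chr2:131186798-131186977, plus strand: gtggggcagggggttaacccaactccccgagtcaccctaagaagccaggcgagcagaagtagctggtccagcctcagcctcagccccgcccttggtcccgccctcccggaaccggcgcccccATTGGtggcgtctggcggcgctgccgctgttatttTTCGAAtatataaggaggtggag

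Cenpf held 2 NF-Y boxes, at -132 and -71, and TTTGAA 3 bases into the gene. Bub1 held NF-Y boxes at -68 and -42 and TTCGAA at 15, and Aspm 3 NF-Y boxes and TTTGAA at 7. In Knl1 TTTGAA began at 32, wholly outside the stretch shown, and in Sgo1 TTCGAA began at 28 and reached past its end. The 2 genes from the other end of the list held the same letters. Cdc25b had an NF-Y box at -28 and TTCGAA at 8, and Bub3 had NF-Y boxes at -74 and -32 with TTCAAA between them at -43.

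A promoter from 250 bases before to 50 after the start was at hand for 44 of the 52 genes. TTTGAA or TTCGAA on either strand occurred in 36 of them (81.8%), against 16.9% of the 11533 tested genes with a promoter and 21.7% of all 27025 genes with one, 32 of 64 other mitotic genes and 22.6% of 31 DNA replication genes. Within 50 bases of the start, a window chosen after the positions were seen, it occurred in 33 (75.0%) against 4.49% of the genes tested. CCAAT occurred in 32 (72.7%) against 42.2% of the genes tested, and it was nearly as frequent in the other mitotic genes (65.6%) and the DNA replication genes (64.5%). Both kinds occurred together in 30 (68.2%) against 6.73% of the genes tested. The E2F motif TTCCCGC, on either strand, occurred in 1 of the 44 (2.27%) against 9.32% of genes tested, in 15 of 64 other mitotic genes (23.4%) and in 13 of 31 DNA replication genes (41.9%). TTTGAA or TTCGAA within 50 bases of the start did not sort the genes by size of difference: the 33 with it had a median log2 fold change of -1.61 and the 11 without it -1.68. A match of letters is a description of the sequence and does not show that a factor binds there.

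**Figure D3:**
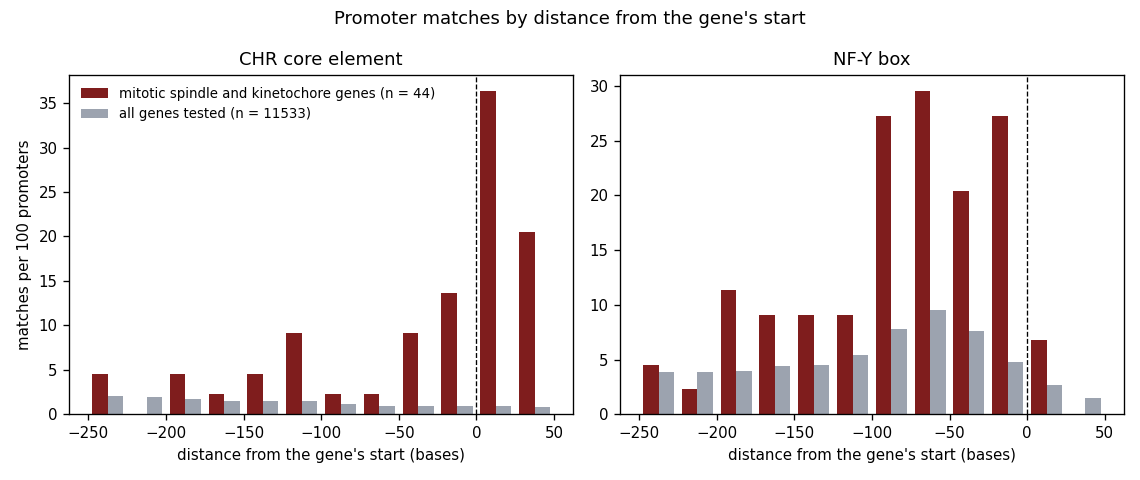
Matches per 100 promoters in 25-base bins of distance from the gene's start, for the CHR core (left) and the NF-Y box (right), in the 44 mitotic genes with a promoter and in the 11533 genes tested with one. CHR matches of the mitotic genes are densest just past the start, and NF-Y matches in the 100 bases before it.

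Other genes of the same processes were compared in the same way, and the quasi-likelihood test called none. Of 79 other mitotic genes, 76 had a negative log2 fold change (52.1% of all genes), 62 lay below both intact samples in every castrated sample (16.1% of all genes) and 44 were lower at an unadjusted p under 0.05 (6.28%), with none higher. Their median was -1.22, and its difference from the list's -1.59 was not tested. By role, 18 further genes of mitotic entry and condensation had a median of -1.43, 29 of the spindle and cytokinesis -1.22 and 32 of the kinetochore and centromere -1.04. The lowest were Troap, a spindle-associated cytoskeletal protein, at -2.31, Depdc1a at -2.24 and the kinetochore gene Cenpk at -2.14. Troap was at 0.523, 0.536 and 0.877 CPM in the castrated samples and at 3.18 and 3.25 CPM in the intact ones. It passed the filter of 1 CPM only through the intact samples, so no conclusion is drawn from its rank. The same held for Ska1, at 0.349, 0.483 and 0.780 CPM against 1.61 and 3.02 CPM. Haus5, at 0.872, 0.912 and 1.36 CPM against 1.57 and 2.56 CPM, also needed the intact samples to pass. The counts above include Troap, Ska1 and Haus5, and all of them lay below both intact samples in every castrated sample, which the filter favours. The highest were the augmin subunits Haus8 (0.70) and Haus4 (0.53), whose castrated samples were all above the intact ones (17.0% of all genes), and the checkpoint gene Mad1l1 (0.05).

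Of 40 DNA replication genes, which act in S phase, 35 had a negative log2 fold change (52.1% of all genes), 24 lay below both intact samples (16.1%) and 16 were lower at an unadjusted p under 0.05 (6.28%), with a median of -0.65. Mcm10, an initiation factor, stood at -1.87, Pole, a replicative polymerase, at -1.81 and Tk1, the thymidine kinase, at -1.77. Mcm10 was at 2.30, 2.68 and 2.68 CPM against 11.2 and 7.53 CPM, with no overlap. The highest were Rpa1 at 0.51, Rfc2 at 0.26 and Rpa2 at 0.11, with overlapping groups. The value of Rpa1 rested on Castrated 1, at 250 CPM. Castrated 2 and Castrated 3, at 111 and 116 CPM, lay between the intact samples at 73.7 and 149 CPM. For the replication genes the lower intact sample was 1.10 times the highest castrated one at the median, against 1.83 for the mitotic list, a difference that was not tested.

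Among 20 regulators of mitotic gene transcription the median was -0.28, with 8 genes below both intact samples (16.1% of all genes) and 3 lower at an unadjusted p under 0.05 (6.28% of all genes), the latter not far from the background. These 3 were the E2F-family repressors E2f8 (-2.02) and E2f7 (-1.45) and Mybl2, the MYB protein of the MuvB complex (-1.56). Mybl2 was at 1.12, 2.25 and 2.29 CPM in the castrated samples and at 5.83 and 5.25 CPM in the intact ones. E2f8 was at 2.13, 5.20 and 6.09 CPM against 25.9 and 10.5 CPM, and its log2 fold change was -1.21 without Intact 1. The highest were the pocket proteins Rb1 (0.64) and Rbl2 (0.32) and the NF-Y subunit Nfya (0.20). All 3 castrated samples of Rb1, at 71.1, 55.3 and 45.4 CPM, were above the intact samples at 30.1 and 43.4 CPM.

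None of the 7 CDK inhibitors lay below both intact samples (16.1% of all genes), which for 7 genes is near the background. Their median log2 fold change was 0.27. It was 1.13 without Intact 1, 0.80 with TPM as input and 0.74 with epithelial marker scaling. Cdkn2a, which encodes p16 and ARF, was at 20.1, 15.6 and 5.80 CPM in the castrated samples and at 4.21 and 4.46 CPM in the intact ones (log2 fold change 1.67, SE 0.60). Its castrated samples were all above the intact ones (17.0% of all genes), with Castrated 3 only just so. Cdkn1a (p21) at 0.91 (1.67 without Intact 1) and Cdkn2c (p18) at 0.88 had overlapping groups, as did Cdkn2d at 0.17, Cdkn1b (p27) at -0.19 and Cdkn2b (p15) at -0.31.

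**Figure D4:**
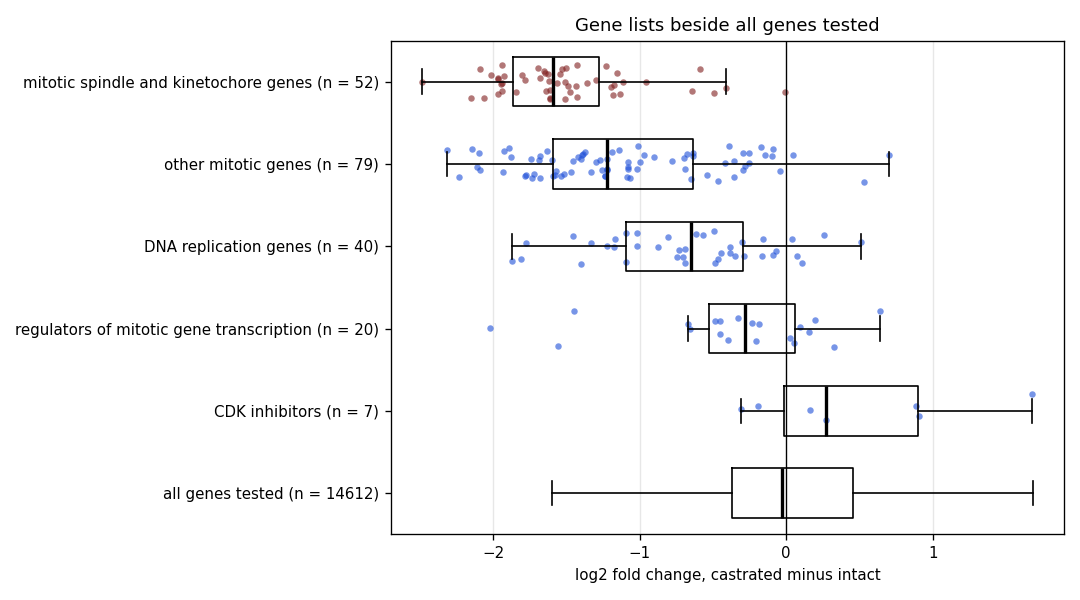
Log2 fold changes (castrated minus intact) of the mitotic list and 4 other lists beside all genes tested; each point is a gene, boxes give quartiles and the median, whiskers reach the last value in the usual box-plot range, and single points are not drawn for all genes. Medians run from -1.59 for the mitotic list through -1.22, -0.65 and -0.28 to 0.27 for the CDK inhibitors, with -0.03 for all genes.

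Cell type markers also differed between the groups. The 9 epithelial markers summed to 4254, 3896 and 4898 CPM in the castrated samples and to 6152 and 4468 CPM in the intact ones. Their median log2 fold change was -0.25, none lay below both intact samples (16.1% of all genes), and Krt18 was the most abundant. Per 1000 CPM of these markers the mitotic list summed to 93.1, 134 and 124 CPM in the castrated samples and to 164 and 317 CPM in the intact ones. The groups still did not overlap, and Castrated 2 was the closest to Intact 1. Scaling every gene by the epithelial sum, an alternative chosen after the data were seen, gave a median of -1.37 for the list and 0.24 for all genes tested, with 40 of the 52 genes and 556 of all genes below both intact samples in every castrated sample.

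Most markers of other cells were higher in castrated tissue. The 5 smooth muscle markers summed to 243, 479 and 438 CPM in the castrated samples against 100 and 75.1 CPM, and all 5 were above the intact samples in every castrated sample (17.0% of all genes), Acta2 being the most abundant. The 8 macrophage markers, C1qa the most abundant, summed to 901, 2552 and 1331 CPM against 564 and 548 CPM, with 7 of 8 above both intact samples in every castrated sample (17.0% of all genes). The 6 adipocyte markers, led by Fabp4, summed to 38.1, 462 and 389 CPM against 26.1 and 52.2 CPM, so that Castrated 1 was between the intact samples. The 8 T and B cell markers, led by Cd79a, summed to 17.5, 90.1 and 95.0 CPM against 3.90 and 32.4 CPM. The 6 fibroblast markers, led by Dcn, summed to 4326, 5416 and 7188 CPM against 4137 and 2469 CPM, with 3 genes above both intact samples (17.0% of all genes). The 5 endothelial markers, led by Cdh5, summed to 347, 224 and 266 CPM against 371 and 131 CPM, with overlapping sums and 3 genes above both intact samples (17.0% of all genes). Adipoq was at 0 counts in Intact 1 and 0.093 CPM in Intact 2. The part of these shifts in tissue makeup in the lower mitotic levels was not tested. Castrated 1 had the lowest smooth muscle, macrophage, lymphocyte, fibroblast and adipocyte sums of the castrated samples and also the lowest mitotic sum, while its endothelial sum was the highest of the 3 and the lowest epithelial sum was in Castrated 2.

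**Figure D5:**
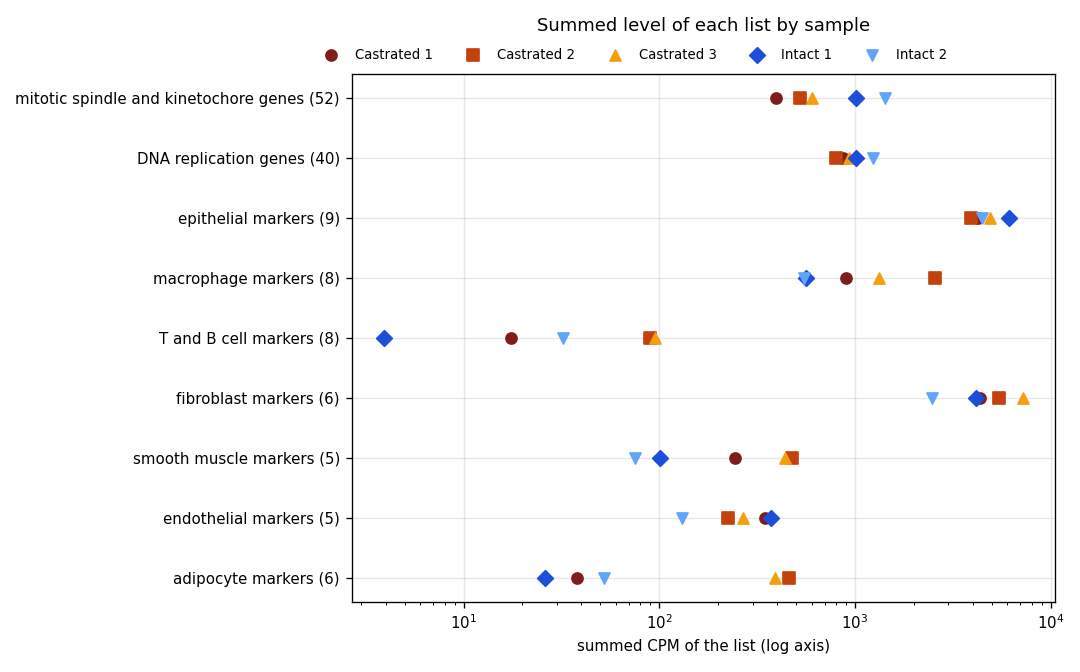
Summed CPM of the mitotic list, the DNA replication genes and 7 marker lists in each sample (log axis; number of genes in parentheses). The mitotic sum is highest in the 2 intact samples, epithelial sums lie within 3896 to 6152 CPM in all 5, and macrophage and smooth muscle sums are highest in the 3 castrated samples.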

How the data were processed

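Total RNA from 3 castrated and 2 intact samples of TripleTg prostate cancer tissue was depleted of ribosomal RNA and sequenced. Per the submitters' processing notes, the tools were Trimmomatic 0.39 for trimming and STAR 2.7.9 for alignment (mm10), and the authors deposited HTSeq 2.0.2 counts per gene in 1 table, together with gene coordinates and gene length, which the deposited table gives for each row. The strand setting is not given in the sources used here. 8 of the 52 genes overlap another gene (rows spanning more than 1000000 bases, which merge copies, were left out), 4 of them on the opposite strand: Ncapg, Kif20a, Cdc20 and Nusap1. Ccnb1, Ccnb2, Aurkb and Kif4 have pseudogenes, so reads of these genes may be split or shared.

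Counts were scaled by TMM and fitted across all genes with edgeR 4.0.16 (R 4.3.3): CPM above 1 in at least 2 samples, quasi-likelihood test, Benjamini-Hochberg adjustment over 14612 genes, calls at adjusted p under 0.05 with a log2 fold change beyond 1 either way. SE is the absolute log2 fold change over the square root of F. TPM was computed from counts and the deposited length. DESeq2 1.42.0, limma 3.58.1 and other scalings, filters and sample sets were alternatives, and scaling by epithelial markers was added after the data were seen. The scripts were tested on simulated data. The samples of 1 group were not duplicates of each other.

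The 52 genes and the other lists were chosen with earlier results of these data known. Genes named were Mki67, the 5 lowest and 5 highest members, per role the most abundant (TPM) and the lowest, the 3 lowest and 3 highest of each of the 4 other cell cycle lists, and the most abundant of each marker list. Further genes were named after their values were seen. Of the prostate luminal and secretory markers, 1 gene and the sums that include it are not reported here.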

Additional observations from a re-analysis of the deposited data

How the results depend on the processing

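Across 18 alternatives, 49 of the 52 mitotic genes kept a negative log2 fold change in every one. The exceptions were Bub3, Cdc25b and Smc4. DESeq2 called 989 genes and 33 of the 52, and the likelihood ratio test 369 and 14, against 0 by the quasi-likelihood test; the cause was not tested. Leaving out 1 sample at a time, the quasi-likelihood test called 0 to 1 genes in all, none of the 52, and had 26 (without Intact 2) to 46 of the 52 lower at an unadjusted p under 0.05, with 29 without Castrated 2. The median log2 fold change was -1.21 with TPM as input, where a pseudocount of 1 shrinks low genes and the median of all genes was 0.13. With the replicate number as a block it was -1.80, with 41 genes lower at an unadjusted p under 0.05 against 1.83% of all genes (6.28% without the block). Deviations from the group means correlated little between samples of the same number (r = 0.149 for replicate 1 and -0.045 for replicate 2). With 2 intact samples their deviations mirror each other, so these values cannot exclude pairing. The main fit did not take the numbers as pairs.

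Among the genes named by rule, 8 changed sign under an alternative. Bub3 was 0.017 by library size alone, 0.12 by TPM, 0.0091 under the replicate block and 0.27 by epithelial scaling, and -0.083 to 0.049 when 1 sample was left out. That range was -0.90 to 0.058 for Cdc25b and -0.74 to 0.012 for Smc4. Cdkn1b was 0.0098 by epithelial scaling and -0.45 to 0.11 with 1 sample left out. Cdkn2b was 0.0071 by voom, 0.095 by TPM, 0.23 under the replicate block, 0.12 by epithelial scaling and -1.05 to 1.13 with 1 sample left out. Mad1l1 and Rpa2 were -0.16 and -0.041 under the replicate block. With 1 sample left out, the ranges were -0.095 to 0.29 for Mad1l1, -0.11 to 0.35 for Rpa2 and -0.031 to 0.36 for Cdkn2d.

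With 2 intact samples and a common dispersion of 0.238, a member's log2 fold change carries a median SE of 0.41, and Cdc25c rests on 19 to 105 reads per sample.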

Other observations

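The 76 cytosolic ribosomal protein genes, a list added after the data were seen, all had negative log2 fold changes too, with a median of -1.09, but their sample pattern differed from that of the mitotic genes. They summed to 43160, 38140 and 43880 CPM in the castrated samples, 45680 CPM in Intact 1 and 132100 CPM in Intact 2. The median ribosomal gene stood at 50.2%, 42.0% and 48.7% of the intact mean in the castrated samples. It was at 51.7% in Intact 1 and 148% in Intact 2, so the median of -1.09 rested mostly on Intact 2. The ratio of Intact 2 to Intact 1 was 2.87 at the median, against 1.49 for the mitotic genes, and the lower intact sample was 1.02 times the highest castrated one, against 1.83. For 43 of the 76 genes every castrated sample lay below both intact samples (16.1% of all genes), and 22 were lower at an unadjusted p under 0.05 (6.28% of all genes). These differences between the lists were not tested.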
